A study of Mus musculus with 24 samples.

Results

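Hepatocytes take up drugs and bile acids from blood through organic anion transporting polypeptides (OATP, Slco genes) and extrude them through ATP-binding cassette (ABC) transporters. The transcripts of 10 such genes were followed in mouse liver: the uptake carriers Slco1a1, Slco1a4, Slco1b2 and Slco2b1, and the ABC exporters Abcc2, Abcc3, Abcc4, Abcc6, Abcb1a and Abcg2. They were chosen by name, as hepatic drug transporters of both families, but with earlier results of these data known. They are 10 of the 25746 genes counted, and all 10 passed the filter on low counts. RNAseq libraries were made from the livers of 24 mice aged 12 weeks, 6 each of male wildtype (mWT), male knockout (mKO), female wildtype (fWT) and female knockout (fKO) mice. Their strain background was C57BL/6N (spelled C57/BL6N in the labels). KO mice were homozygous for a CRISPR/Cas9 deletion of the whole major urinary protein (Mup) gene cluster. The KO line went back to 1 male founder and was bred by crossing heterozygous mice, so that the deletion cannot be told apart from other changes of this founder that are linked to the cluster. No drug treatment is named for any group, and all mice were fasted for some hours, scanned under isoflurane and killed by cardiac puncture.

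OATP sit in the basolateral (sinusoidal) membrane of the hepatocyte and exchange organic anions across it, including bile acids, bilirubin conjugates, steroid sulfates, statins and other drugs. ABC transporters use ATP to move substrates outward, either across the canalicular membrane into bile (Abcc2, Abcg2, and Abcb1a as one of the mouse P-glycoproteins) or back across the basolateral membrane into blood (Abcc3, Abcc4 and, as an ATP release protein, Abcc6). In mouse liver several of these genes are known to differ between the sexes through the sex-specific pattern of growth hormone secretion and its mediator STAT5, and several respond to the xenobiotic receptors CAR, PXR and AhR and to NRF2.

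The genes Slco1b2, Slco1a4 and Slco1a1 are neighbours on mouse chromosome 6 (GRCm38, GENCODE M21). Slco1b2 lies on the plus strand at 141629518 to 141686646, Slco1a4 on the minus strand at 141805440 to 141856199 and Slco1a1 on the minus strand at 141907282 to 141946962. Slco1a4 starts 118793 bp after Slco1b2 ends, and Slco1a1 starts 51082 bp after Slco1a4 ends. Slco1a6 and Slco1a5, which lie beyond Slco1a1 on the same chromosome, reached at most 2 counts in any library. The 250 bases upstream of the RefSeq transcription start (GRCm38.p6) are shown for the 3 expressed neighbours, because 1 of them was higher in males, 1 higher in females and 1 was not called between the sexes. They are written 5′ to 3′ on the strand of the gene, and capitals mark a match to one of the motifs searched. The windows are chr6:141946963-141947212 for Slco1a1, chr6:141856221-141856470 for Slco1a4 and chr6:141629268-141629517 for Slco1b2.
Slco1a1: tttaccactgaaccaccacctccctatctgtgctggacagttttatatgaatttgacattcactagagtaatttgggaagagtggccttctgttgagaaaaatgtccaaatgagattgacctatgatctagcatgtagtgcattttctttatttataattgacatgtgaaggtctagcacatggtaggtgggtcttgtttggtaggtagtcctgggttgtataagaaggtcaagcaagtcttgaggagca
Slco1a4: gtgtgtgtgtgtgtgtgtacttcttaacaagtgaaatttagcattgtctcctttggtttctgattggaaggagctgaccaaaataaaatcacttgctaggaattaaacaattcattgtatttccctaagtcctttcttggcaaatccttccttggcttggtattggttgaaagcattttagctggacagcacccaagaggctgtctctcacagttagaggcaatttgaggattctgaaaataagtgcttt
Slco1b2: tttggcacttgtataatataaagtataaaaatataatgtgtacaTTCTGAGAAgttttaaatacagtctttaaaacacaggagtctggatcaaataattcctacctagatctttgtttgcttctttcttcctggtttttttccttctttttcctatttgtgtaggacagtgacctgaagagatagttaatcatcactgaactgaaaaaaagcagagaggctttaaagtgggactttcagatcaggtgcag
The motifs searched on both strands were STAT5 (TTCNNNGAA), FOXA (TGTTTAC) and HNF6 (ATCAAT). Of 32851 RefSeq windows of the same length, 7.02% held the STAT5 motif, 3.17% the FOXA motif and 6.72% the HNF6 motif. The only match in these 3 windows was TTCTGAGAA upstream of Slco1b2, 206 to 198 bases before the start, where the letters of STAT5 occur. No match in the other windows says only that these letters are not there.

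The total count per library ranged from 15361901 to 26261394 (median 18946100.5). By group its median was 16443681 in mWT, 18946100.5 in mKO, 20763735 in fWT and 19357666.5 in fKO mice. The p-values set a difference between groups against the variation between mice. The summed count of the 22 Mup genes was 272548 to 741314 in mWT and 70768 to 110248 in fWT mice, against at most 10 in mKO and 11 in fKO mice. Summed over 4 Y-linked genes, libraries labelled male held 172 to 232 CPM (counts scaled to the size of the library) and those labelled female at most 0.0754 CPM. The 7 hepatocyte markers summed to 100266 to 152877 CPM over all libraries, and 5 pancreas markers to under 1 CPM. Counts were lowest for Abcb1a (17 to 395 counts per library) and Abcc4 (19 to 93). Of the distinct stretches of 100 bases in Abcb1a transcripts, 13.4% also occur in Abcb1b, Abcb4 or Gm42686 (Abcb4 is far more abundant than Abcb1a). How reads from these stretches were counted is not given, so the count of Abcb1a is uncertain, and by how much was not tested. This share was 4.25% for Slco2b1, 0.614% for Slco1a1, 0.640% for Slco1a4 and 0.0% for the other 6 genes.

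The first question was how the 10 transporters differ between the sexes. In WT mice, 8 of 10 passed the test (edgeR quasi-likelihood test, Benjamini-Hochberg adjusted p under 0.05 over the 12330 genes tested, with SE for the standard error of a log2 fold change), against 17.3% of all genes tested. Slco1a1, Abcc2 and Abcg2 were higher in males, where 8.51% of all genes were higher. Slco1a4, Slco2b1, Abcc3, Abcc4 and Abcb1a were lower in males, where 8.81% of all genes were lower. In KO mice, 6 of 10 passed the test against 14.4% of all genes, with Slco1a1 and Abcg2 higher (7.26% of all genes) and Slco1a4, Slco2b1, Abcc4 and Abcb1a lower in males (7.13%). The sexes did not overlap for Slco1a1, Slco1a4, Abcc4, Abcb1a and Abcg2, 5 of 10 members in each genotype, against 7.7% of all genes in WT and 7.26% in KO mice. A log2 fold change of at least 1 in either direction was seen for 4 of 10 members in each genotype, against 3.77% of all genes in WT and 3.32% in KO mice. The median absolute log2 fold change between the sexes was 0.54 over the members and 0.15 over all genes in WT mice, and 0.43 and 0.15 in KO mice. Since the members were chosen with earlier results of these data known, these shares are descriptions.

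Slco1a1 (Oatp1a1), an uptake carrier of organic anions and steroid conjugates, was expressed at 545 to 819 CPM in mWT mice (median 726). In fWT mice it ranged from 123 to 323 CPM (median 147). No fWT mouse reached the lowest mWT mouse. Its mean was 707 ± 98.4 CPM (SD, n = 6) in mWT mice, against 193 ± 91.8 CPM (SD, n = 6) in the fWT group. This log2 fold change of 1.87 (SE 0.290, adjusted p = 7.79e-05, edgeR) corresponds to a level 3.66-fold higher in males. In KO mice the levels were 629 to 936 CPM (median 679) in males and 115 to 418 CPM (median 298) in females, again without overlap. There the log2 fold change was 1.33 (SE 0.286, adjusted p = 0.00249, edgeR). Females varied more among themselves than males, with a coefficient of variation of 47.5% in fWT and 44.0% in fKO against 13.9% in mWT and 15.8% in mKO mice.

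Slco1a4 (Oatp1a4), which transports bile acids and cardiac glycosides, showed the reverse pattern. Its level was 35.4 to 118 CPM (median 97.7) in mWT and 227 to 347 CPM (median 284) in fWT mice. In KO mice it was 65.1 to 131 CPM (median 97.7) in males and 177 to 395 CPM (median 277) in females. All females stood above all males of their genotype. The log2 fold change of males over females was −1.68 (SE 0.234, adjusted p = 1.86e-05) in WT and −1.5 (SE 0.233, adjusted p = 7.86e-05) in KO mice by edgeR, which is 3.20-fold and 2.82-fold higher in females.

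Because Slco1a1 and Slco1a4 are close relatives, their ratio per length of exon was compared within each library. The ratio of Slco1a1 to Slco1a4 was 6.13 to 28.2 in mWT mice (median 9.47), 6.73 to 17.5 in mKO mice (median 8.06), 0.541 to 1.21 in fWT mice (median 0.680) and 0.429 to 2.88 in fKO mice (median 1.4). Slco1a1 thus exceeded Slco1a4 in every male. Among females, Slco1a4 was the higher of both in some mice and Slco1a1 in others. In the scatter plot of both genes, males and females form separate clouds.

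**Figure D1:**
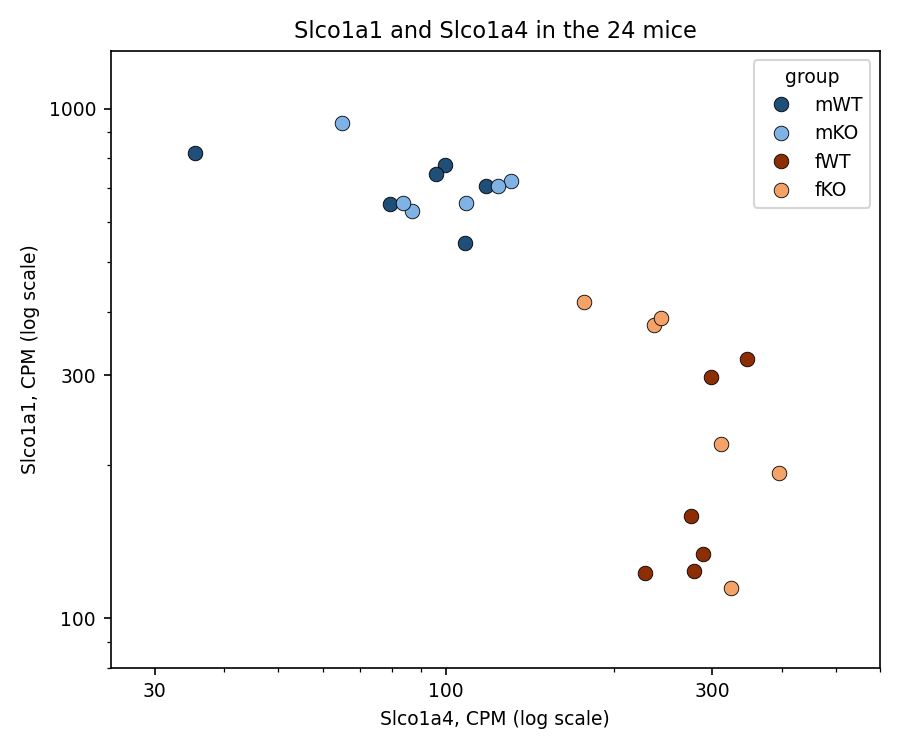
Level of Slco1a1 (vertical axis) against that of Slco1a4 (horizontal axis) in CPM, both on log scales, with 1 point per mouse coloured by group. Males lie at 545 to 936 CPM of Slco1a1 and at most 131 CPM of Slco1a4, females at 115 to 418 CPM and at least 177 CPM.

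Slco1b2 (Oatp1b2), the liver-specific carrier and mouse counterpart of the human OATP1B proteins, was not called between the sexes. Its level was 1370 to 1957 CPM (median 1494) in mWT and 1307 to 1722 CPM (median 1529) in fWT mice, and these ranges overlapped widely. Its log2 fold change was 0.05 in WT (95% interval −0.14 to 0.25, adjusted p = 0.756, edgeR) and 0.11 in KO mice (95% interval −0.08 to 0.31, adjusted p = 0.460). Slco2b1 (Oatp2b1), a carrier of steroid sulfates that is also found outside the liver, was slightly lower in males. It ranged from 140 to 174 CPM (median 167) in mWT and from 173 to 216 CPM (median 197) in fWT mice, with overlap only between the highest mWT and the lowest fWT values. Its log2 fold change was −0.27 (SE 0.0674, adjusted p = 0.00674, edgeR) in WT and −0.21 (SE 0.0674, adjusted p = 0.0348) in KO mice. By edgeR, the call in KO mice did not hold when mKO mouse 1 (adjusted p = 0.0678), 3 (0.0816), 4 (0.0517) or 5 (0.0676) or fKO mouse 1 (0.0689), 4 (0.0787) or 6 (0.0566) was left out, within a range of 0.0149 to 0.0816 over all alternatives.

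**Figure D2:**
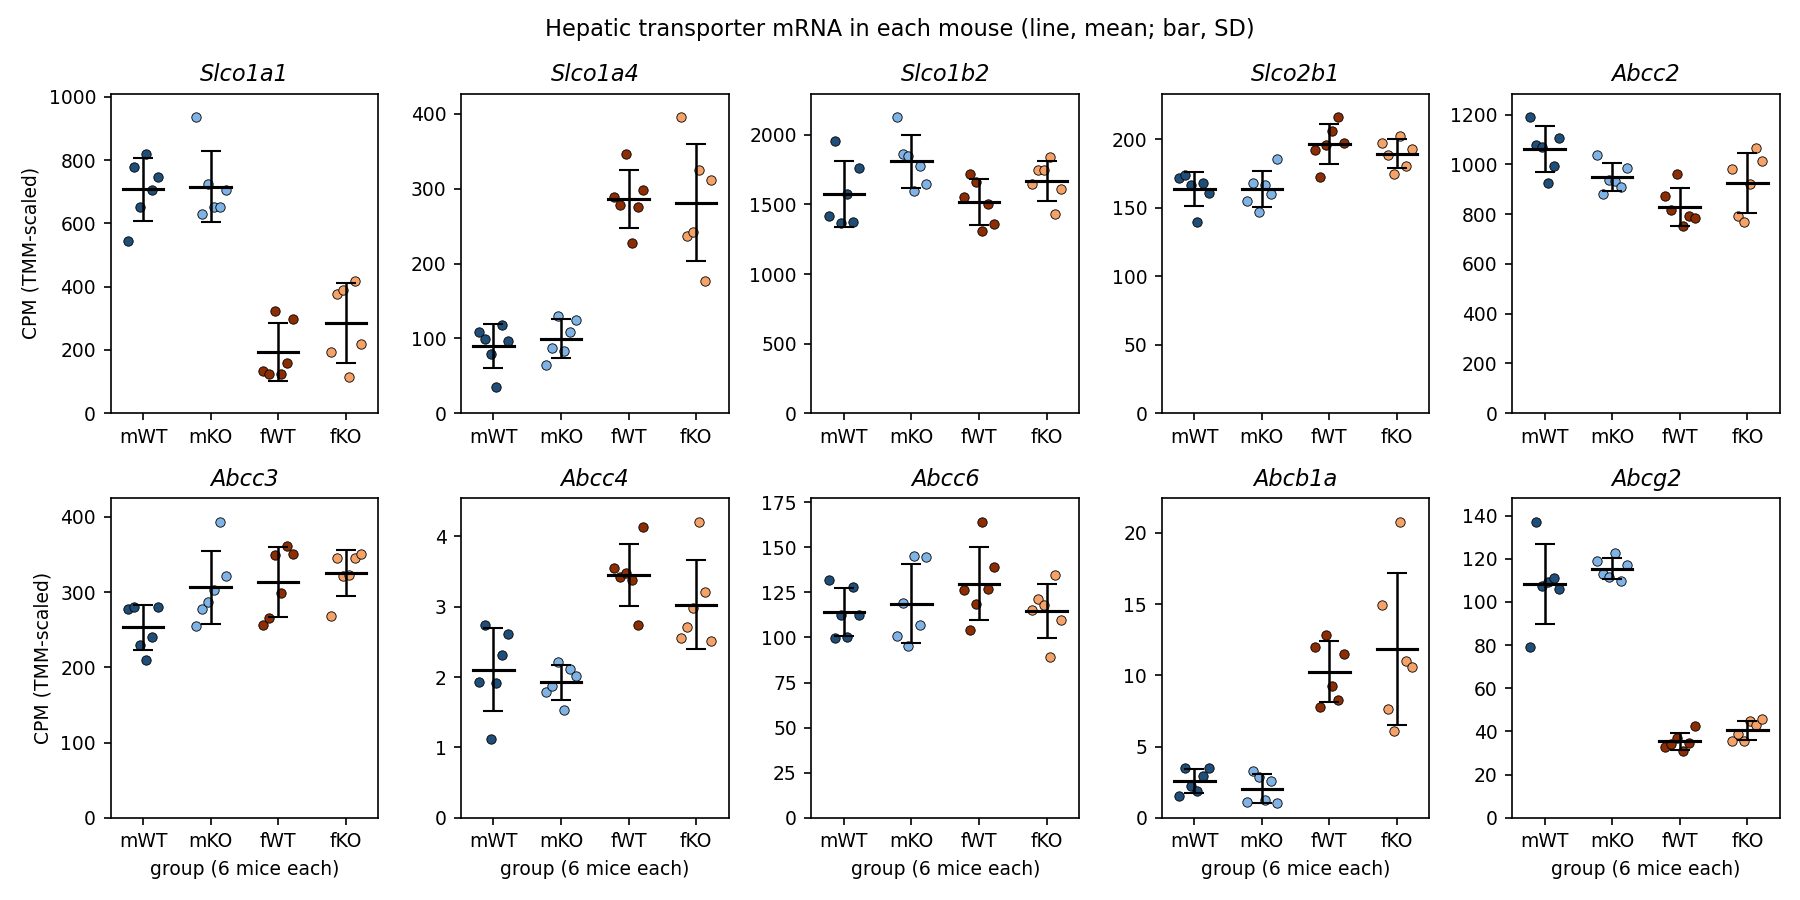
Level of each of the 10 transporters in CPM (vertical axes, starting at 0) by group, with 1 point per mouse, a line for the mean and a bar for the SD of 6 mice. Males and females of a genotype do not overlap for Slco1a1, Slco1a4, Abcc4, Abcb1a and Abcg2, while WT and KO mice of a sex overlap for all 10.

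Among the exporters of the canalicular membrane, Abcg2 (breast cancer resistance protein, an exporter of urate, sulfates and many drugs) showed the smallest p-value of the 10 members. It was expressed at 79.2 to 137 CPM (median 108) in mWT and at 31.1 to 42.7 CPM (median 34.4) in fWT mice. In KO mice the levels were 110 to 122 CPM (median 115) in males and 35.7 to 45.6 CPM (median 40.8) in females. The lowest male stood well above the highest female in both genotypes. The log2 fold change was 1.61 (SE 0.0974, adjusted p = 1.68e-12) in WT and 1.51 (SE 0.0969, adjusted p = 7.49e-12) in KO mice by edgeR, 3.06-fold and 2.84-fold higher in males.

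Abcb1a, a P-glycoprotein that extrudes hydrophobic drugs and is best known from the blood-brain barrier, had a low level in liver. In mWT mice it was 1.5 to 3.5 CPM (median 2.58), in fWT mice 7.76 to 12.8 CPM (median 10.4). In KO mice it was 1.01 to 3.29 CPM (median 1.93) in males and 6.12 to 20.8 CPM (median 10.8) in females. Each female exceeded every male of the same genotype, but levels within a group were spread, with a coefficient of variation of up to 50.3% in mKO mice. The log2 fold change was −1.99 (SE 0.307, adjusted p = 6.02e-05, edgeR) in WT and −2.54 (SE 0.312, adjusted p = 3.31e-06) in KO mice, or 3.98-fold and 5.83-fold higher in females. Its relatives with shared sequence were not called between the sexes. Abcb1b, the other drug-exporting P-glycoprotein of mice, had means of 1.31 CPM in mWT, 1.10 in mKO, 0.768 in fWT and 0.802 in fKO mice. By mean it was thus higher in males, the reverse of Abcb1a. Abcb4, the phospholipid exporter, had group means of 258 to 292 CPM. The log2 fold change of Abcb4 was −0.03 (adjusted p = 0.845, edgeR) in WT mice.

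Abcc2 (Mrp2), which exports bilirubin and glutathione conjugates into bile, ranged from 923 to 1189 CPM (median 1074) in mWT and from 750 to 963 CPM (median 804) in fWT mice. These ranges overlapped little. Males had the higher level, by 0.35 on the log2 scale (SE 0.0836, adjusted p = 0.00388, edgeR). In KO mice the levels were 881 to 1038 CPM (median 936) in males and 769 to 1065 CPM (median 951) in females, and the log2 fold change was 0.04 (95% interval −0.13 to 0.21, adjusted p = 0.815, edgeR). The difference between both sex effects is the interaction of KO and sex, which was −0.32 (SE 0.118, unadjusted p = 0.0127, edgeR) but did not pass adjustment over all genes (adjusted p = 0.816).

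Among the exporters of the basolateral membrane, Abcc4 (Mrp4), which carries bile acids, cyclic nucleotides and nucleoside drugs, was low but higher in females. Its level was 1.11 to 2.74 CPM (median 2.13) in mWT and 2.74 to 4.14 CPM (median 3.45) in fWT mice, so that the groups touched without overlapping. In KO mice it was 1.54 to 2.21 CPM (median 1.95) in males and 2.51 to 4.21 CPM (median 2.85) in females. The log2 fold change was −0.72 (SE 0.170, adjusted p = 0.00401) in WT and −0.66 (SE 0.171, adjusted p = 0.00947) in KO mice by edgeR. Abcc3 (Mrp3), which returns glucuronides and bile acids to blood, was 210 to 281 CPM (median 259) in mWT and 257 to 361 CPM (median 324) in fWT mice, with overlapping ranges. Its log2 fold change was −0.31 (SE 0.106, adjusted p = 0.0429, edgeR) in WT and −0.09 (95% interval −0.31 to 0.13, adjusted p = 0.624) in KO mice. By edgeR, the call in WT mice did not hold without mWT mouse 3 (adjusted p = 0.0930), 4 (0.102) or 5 (0.0810) or fWT mouse 3 (0.0934), 4 (0.0522), 5 (0.10) or 6 (0.0881), within a range of 0.0221 to 0.102 over all alternatives. Abcc6 (Mrp6), whose loss causes ectopic mineralization, was not called between the sexes. It was 99.9 to 132 CPM (median 112) in mWT and 104 to 164 CPM (median 127) in fWT mice, with log2 fold changes of −0.19 (95% interval −0.43 to 0.05, adjusted p = 0.290, edgeR) in WT and 0.05 (95% interval −0.19 to 0.29, adjusted p = 0.829) in KO mice.

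**Figure D3:**
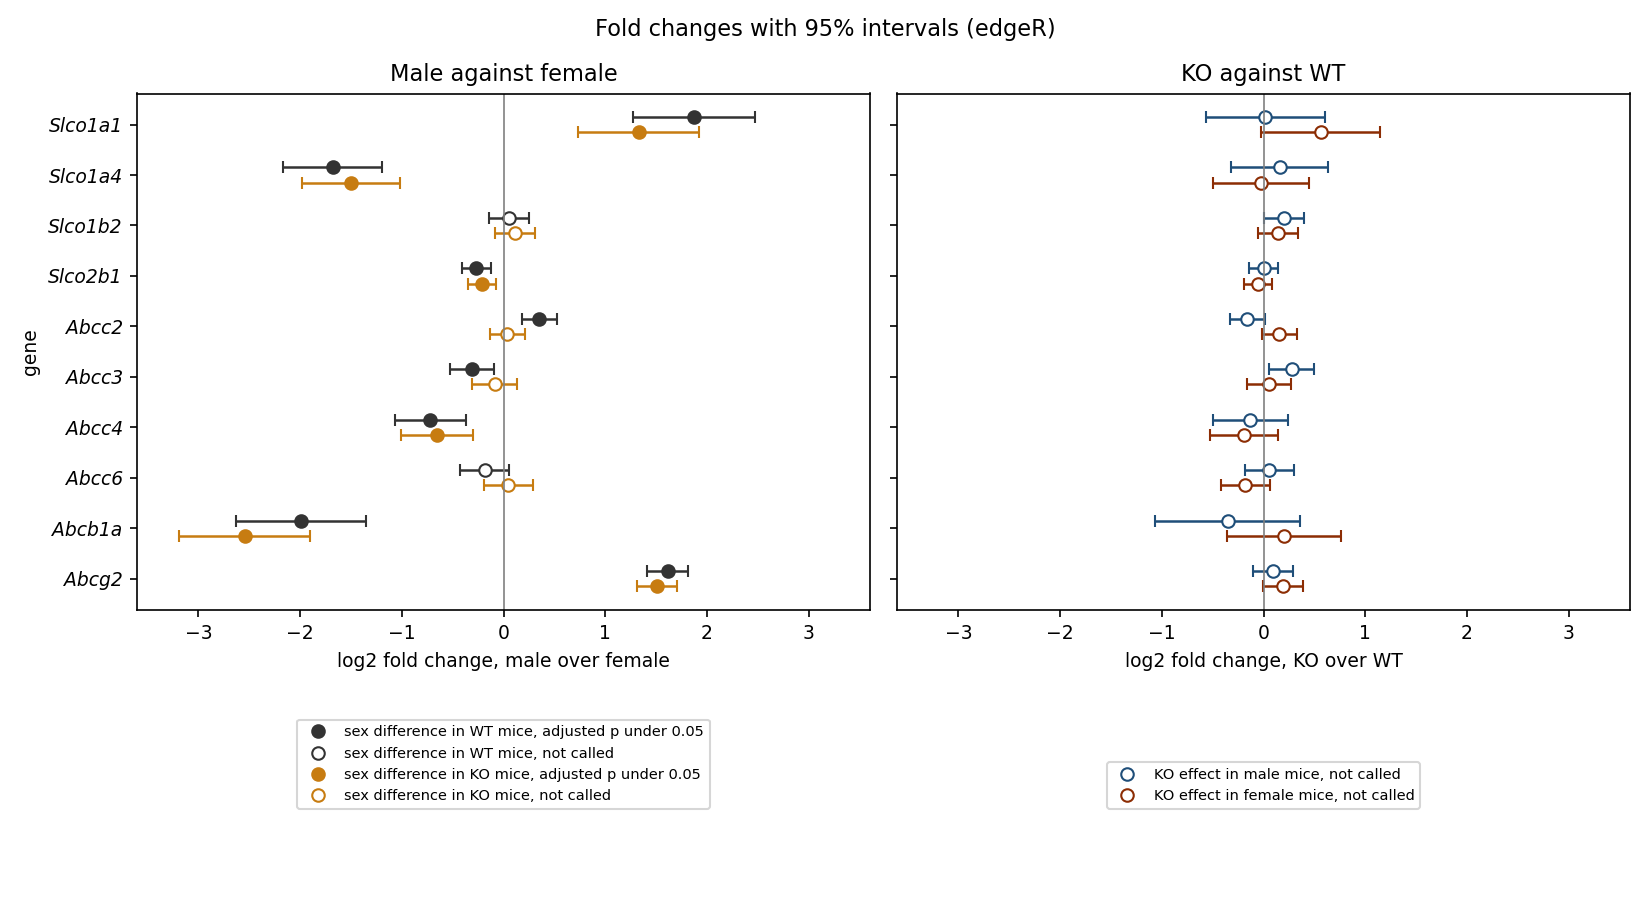
Log2 fold change (horizontal axes) of each transporter (vertical axis) with its 95% interval from edgeR, males over females at the left and KO over WT at the right. Filled points have an adjusted p under 0.05, and they occur only at the left, where Abcb1a lies furthest to the negative side at −2.54 in KO mice and Slco1a1 furthest to the positive side at 1.87 in WT mice.

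In whole liver, fewer cells of a type and less RNA per cell cannot be told apart. Some markers of other liver cells were called between the sexes in the same libraries. Of all genes tested, 17.3% were called in WT and 14.4% in KO mice. The summed level of 7 endothelial markers was 142 to 181 CPM in mWT and 158 to 222 CPM in fWT mice, with Stab2 and Clec4g lower in males. The 7 Kupffer cell and macrophage markers summed to 79.1 to 162 CPM in mWT and 145 to 264 CPM in fWT mice, with 5 of 7 lower in males, among them Clec4f and Vsig4. The 7 hepatic stellate cell markers summed to 175 to 319 CPM in mWT and 264 to 345 CPM in fWT mice, with Dcn and Colec11 lower in males. The 7 cholangiocyte markers summed to 31.6 to 40.8 CPM in mWT and 36.5 to 58.0 CPM in fWT mice. Most of this sum was Spp1 (means of 32.0 and 42.1 CPM), which was lower in males. Only 4 of these markers were tested, and the others were not called, with Epcam and Muc1 lower and Sox9 higher in males by sign. The 6 lymphocyte markers stayed at or under 6.06 CPM in sum in all groups. Markers of red blood cells went the other way in sum, with 142 to 197 CPM in mWT and 34.1 to 55.4 CPM in fWT mice. Most of this difference lay in Alas2, called higher in males at means of 132 CPM in mWT and 12.1 CPM in fWT mice. The globins Hba-a1 (7.35 and 5.42 CPM) and Hbb-bs (35.5 and 28.5 CPM) were not called in WT mice. In KO mice Stab2 of the endothelial list and Lrat, Dcn and Colec11 of the stellate list were lower in males, 0 of 7 Kupffer cell and macrophage markers was called by edgeR, and all 3 red blood cell markers were higher in males. In none of these lists was a marker at 0 in all mice of a group, and none of their markers was called for a KO effect in either sex by edgeR. Their part in the sex differences of the transporters was not tested.

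The second question was whether deletion of the Mup cluster changed the transporters. By edgeR none of the 10 members passed the test in males, where 0.211% of all genes did, or in females, where 0.0892% did. All genes here include the deleted Mup genes. With the Mup genes removed, edgeR called 2 of 12332 genes in males and 0 in females. DESeq2 called 0 of 10 in females and 0 of the 8 members to which it gave an adjusted p in males, where Abcb1a and Abcc4 had none. At an unadjusted p under 0.05, 2 of 10 members were found in males (Slco1b2 and Abcc3), against 10.6% of all genes, and 0 of 10 in females, against 4.87%. The groups of WT and KO mice overlapped for all 10 members in both sexes, where 1.09% of all genes in males and 0.349% in females did not overlap. The median log2 fold change over the members was 0.04 in males and 0.10 in females, and 0.00 over all genes in each.

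For the uptake carriers, Slco1b2 was 1594 to 2127 CPM (median 1812) in mKO mice, and its log2 fold change against mWT was 0.20 (95% interval 0.00 to 0.40, adjusted p = 0.464, edgeR). In fKO mice it was 1428 to 1840 CPM (median 1697), with a log2 fold change of 0.14 (95% interval −0.06 to 0.33, adjusted p = 0.929). Slco1a1 had a log2 fold change of 0.02 in males (95% interval −0.56 to 0.60) and of 0.56 in females (95% interval −0.02 to 1.15, unadjusted p = 0.0596, adjusted p = 0.929). The wide intervals leave room for a change of Slco1a1 of about the size seen in females in either direction in males. Slco1a4 had log2 fold changes of 0.16 (95% interval −0.32 to 0.64) in males and −0.02 (95% interval −0.49 to 0.45) in females. The narrowest interval belonged to Slco2b1, at −0.14 to 0.14 in males and −0.19 to 0.08 in females.

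For the exporters, Abcc3 was 255 to 394 CPM (median 295) in mKO mice, with a log2 fold change of 0.28 against mWT (95% interval 0.06 to 0.49, unadjusted p = 0.0153, adjusted p = 0.326, edgeR). In females it was 0.05 (95% interval −0.16 to 0.27). Abcc2 had log2 fold changes of −0.16 in males (95% interval −0.33 to 0.01, unadjusted p = 0.0639) and 0.15 in females (95% interval −0.02 to 0.33, unadjusted p = 0.0755), neither of which passed the test. Abcg2 had 0.09 in males (95% interval −0.10 to 0.28) and 0.20 in females (95% interval 0.00 to 0.39, unadjusted p = 0.0518). Abcb1a had the widest interval of the exporters, at −1.06 to 0.36 in males and −0.36 to 0.76 in females. For Abcc4 the interval was −0.50 to 0.24 in males and −0.52 to 0.14 in females. Abcc6 had log2 fold changes of 0.06 (95% interval −0.18 to 0.30) and −0.18 (95% interval −0.42 to 0.06).

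No member passed the test for the interaction of KO and sex, for which edgeR called 0.00811% of all genes, and 1 of 10 (Abcc2) had an unadjusted p under 0.05, against 5.96% of all genes. Averaged over both sexes, 0 of 10 members passed the test for the KO effect by edgeR or DESeq2. Of all genes edgeR called 0.17%, and 1 of 12332 genes with the Mup genes removed. At an unadjusted p under 0.05 there were 3 of 10 members, against 9.57% of all genes. These were Slco1b2 with a log2 fold change of 0.17 (unadjusted p = 0.0189), Abcc3 with 0.16 (0.0376) and Abcg2 with 0.14 (0.0425), and their lowest adjusted p was 0.407.

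Levels of different genes were compared as CPM per kb of exon. Slco1b2 led in all 4 groups, at 308 ± 33.1 CPM per kb (SD, n = 6) in fWT to 367 ± 38.4 CPM per kb (SD, n = 6) in mKO mice, which is at or above the level of 98.8% of the genes tested in every group. In males it was followed by Slco1a1 (134 ± 18.6 CPM per kb in mWT) and Abcc2 (124 ± 10.8), whose ranges overlapped, then by Abcc3 (44.4 ± 5.33), Slco2b1 (27.5 ± 2.11) and Abcc6 (19.9 ± 2.36), each without overlap with the gene before it in mWT mice. Slco1a4 (13.9 ± 4.58), whose highest mWT mouse reached the lowest Abcc6 value, and Abcg2 (13.3 ± 2.26) came next with overlapping ranges, and Abcb1a (0.473 ± 0.153) and Abcc4 (0.330 ± 0.0926) stood far below. In fWT mice Abcc2 (97.2 ± 9.01 CPM per kb) came right after Slco1b2. It was followed, without overlap, by Abcc3 (55.1 ± 8.16), Slco1a4 (44.5 ± 6.04), Slco1a1 (36.7 ± 17.4) and Slco2b1 (33.0 ± 2.45). From Abcc3 to Slco2b1 each gene overlapped with the one before it, and Abcc6 came after Slco2b1 without overlap. Abcg2 stood further behind Abcc6 there than in mWT mice, at 4.35 ± 0.499 against 22.7 ± 3.56 CPM per kb.

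**Figure D4:**
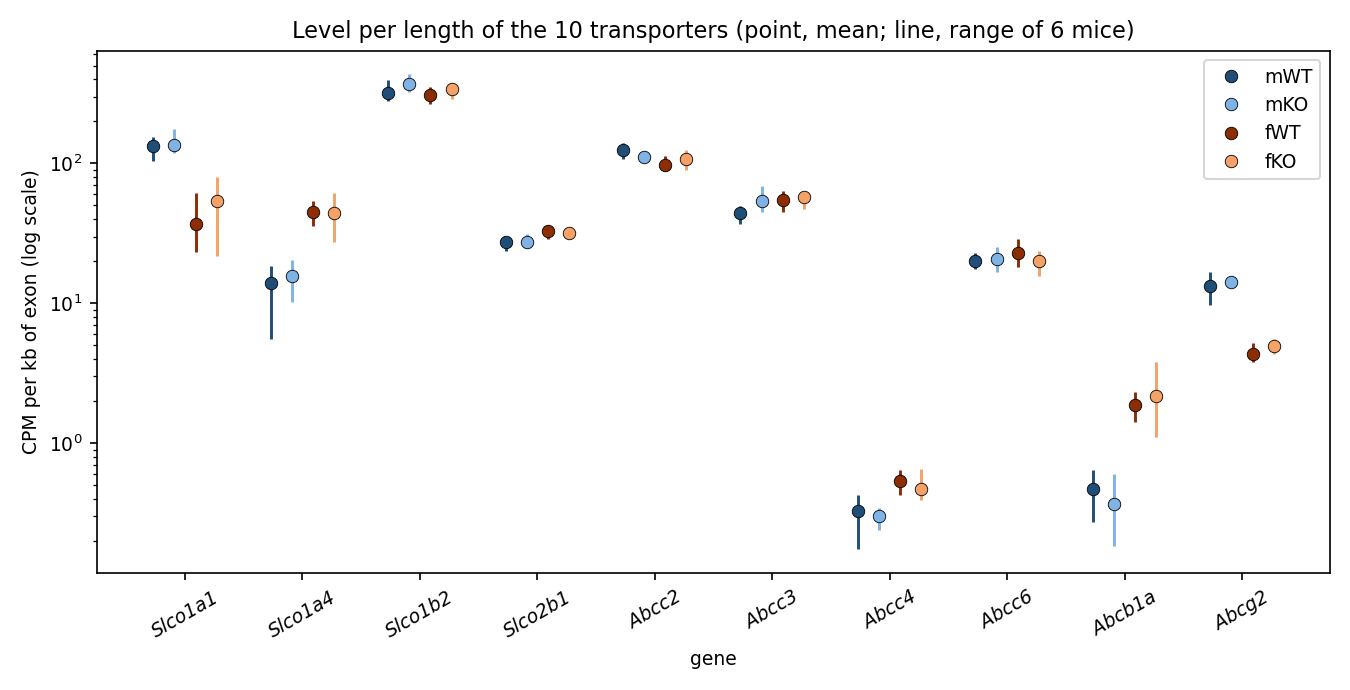
Level of each transporter in CPM per kb of exon (vertical axis, log scale) by gene, with a point for the mean of a group and a line from the lowest to the highest of its 6 mice. Slco1b2 stands highest in all groups at a mean of 308 to 367, and Abcc4 lowest at 0.301 to 0.540.

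The makeup of the 4 uptake transcripts differed between the sexes more than their sum. The sum was 495 ± 60.9 CPM per kb (SD, n = 6) in mWT, 546 ± 53.7 in mKO, 422 ± 41.9 in fWT and 469 ± 26.9 in fKO mice. Slco1a1 made up 23.7 to 30.9% of it in mWT and 5.28 to 13.7% in fWT mice, while Slco1a4 made up 1.10 to 4.0% and 9.76 to 11.3%. Slco1b2 held the largest share in every mouse, at 60.7 to 67.4% in mWT and 67.0 to 78.5% in fWT mice. Among the 6 exporters, whose sum was 203 ± 15.9 CPM per kb (SD, n = 6) in mWT and 182 ± 12.3 in fWT mice, Abcc2 held 59.6 to 63.0% in mWT and 49.5 to 58.0% in fWT, and Abcg2 held 4.39 to 7.98% in mWT and 2.18 to 2.82% in fWT mice. Shares of a sum are not independent of each other, and they were not tested.

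The members did not vary as 1 block from mouse to mouse. Over the 24 mice, as deviations of log2 CPM from the group means, Pearson's r among the 45 pairs of members ran from −0.753 to 0.508 with a median of 0.0928, against a median of −0.001 and a 95th percentile of 0.468 over all pairs of tested genes. The lowest value was that of Slco1b2 with Abcc6 and the highest that of Slco1a4 with Slco2b1 (0.508), followed by Abcc4 with Abcb1a (0.465). These are descriptions over mice that share a sequencing run but whose libraries differ in depth and base composition. Libraries differed in how counts depended on GC content, with a slope of −0.191 to 0.131 on the log2 scale per 10 percentage points of GC relative to the group mean (12318 genes). Slco1b2, whose longest transcript has 38.6% GC, went against this slope (r = −0.800), and Abcc6, with 59.0% GC, went with it (r = 0.867), so base composition moved with the lowest of the 45 values. Slco1a4 had an r of −0.663 with library depth. The other members had values of −0.468 to 0.259 with the GC slope and −0.388 to 0.359 with depth. By group, the median GC slope relative to all mice was 0.0114 in mWT, 0.0457 in mKO, 0.0198 in fWT and −0.0198 in fKO mice. Its part in the differences above was not tested.

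**Figure D5:**
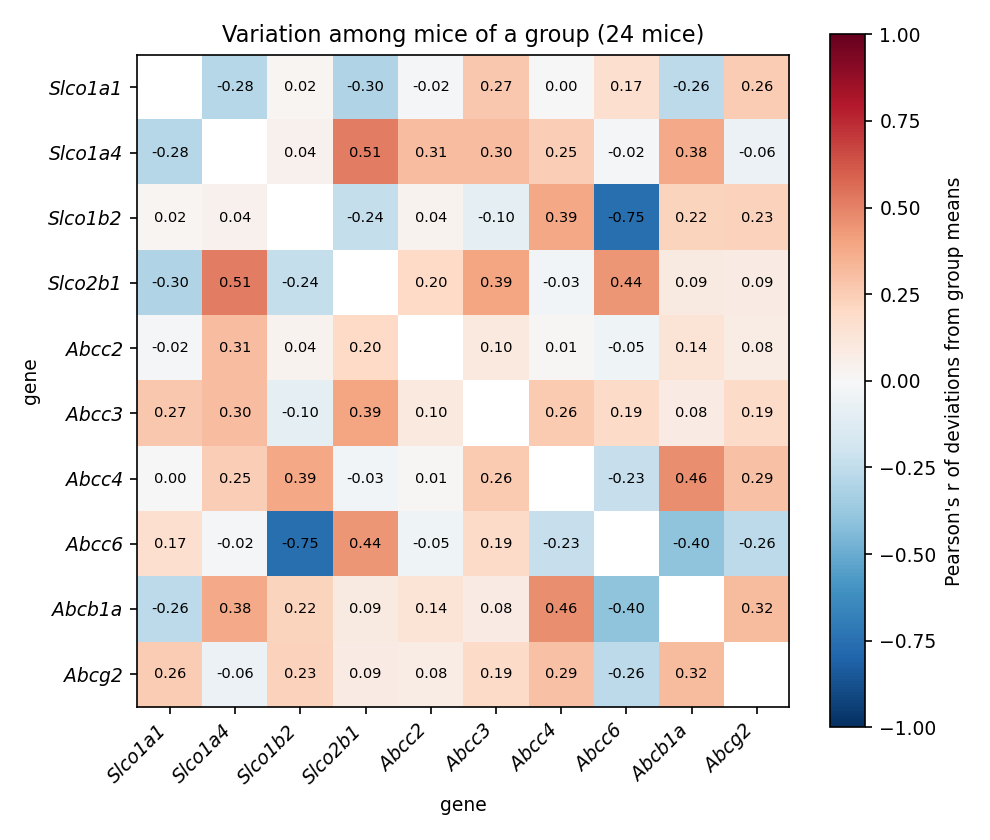
Pearson's r of the deviations from group means for each pair of transporters over 24 mice (rows and columns are genes, colour runs from −1 in blue to 1 in red). The median pair lies at 0.0928, the bluest pair is Slco1b2 with Abcc6 at −0.753, and the reddest is Slco1a4 with Slco2b1 at 0.508.

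Other carriers of the same families were read beside the members. Of 10 further OATP genes in the counts, 2 passed the filter, and of these Slco2a1, a prostaglandin carrier, was lower in mWT than in fWT mice (log2 fold change −0.33, SE 0.116, adjusted p = 0.0484, edgeR). This call sat at the threshold. It was lost in 18 of 35 alternatives, among them leaving out mWT mouse 1 (adjusted p = 0.0778), 2 (0.0945), 3 (0.0767), 5 (0.0713) or 6 (0.0896), mKO mouse 2 (0.0519), 4 (0.0543) or 6 (0.0525), or fWT mouse 1 (0.0658), 3 (0.101), 4 (0.0821), 5 (0.0806) or 6 (0.0790). Of 18 other ABC exporters 16 were tested, and 1 was called in WT mice: Abca1, the exporter of cholesterol to apolipoprotein A-I, was higher in males (log2 fold change 0.33, SE 0.0846, adjusted p = 0.00736, edgeR). None of the 16 was called in KO mice by edgeR. The list includes Abcb11, the bile salt export pump, with group means of 749 to 998 CPM.

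Of 19 other carriers of bile acids and organic ions, 17 were tested, and 3 were higher and 5 lower in males in WT mice, and 1 higher and 4 lower in KO mice, against 17.3% of all genes called in WT and 14.4% in KO mice. The largest changes were those of the organic anion transporter relatives of the Slc22 family, which lie in a multigene cluster, so that reads could be split between copies. Slc22a27 was 0.0504 to 0.937 CPM in mWT and 34.5 to 54.4 CPM in fWT mice (log2 fold change −6.55, SE 0.416, adjusted p = 1.01e-10, edgeR). Slc22a29 was also lower in males (log2 fold change −3.22, SE 0.434), and Slc22a28 was higher (3.05, SE 0.346). All 3 passed the test in the same direction in KO mice. The bile acid carrier Slc10a1 was not called between the sexes, at means of 710 CPM in mWT and 833 CPM in fWT mice. No gene of these 3 lists was called for a KO effect in either sex or for the interaction by edgeR or DESeq2, which gave no adjusted p to 1 of 2 OATP, 7 of 16 ABC exporters and 3 of 17 other carriers in males and for the interaction. At an unadjusted p under 0.05, edgeR found 1 OATP, 1 ABC exporter and 2 other carriers in males (10.6% of all genes) and 0, 0 and 2 in females (4.87%), and 1 other carrier for the interaction (5.96%).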

How the data were processed

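Hepatic RNAseq counts of 24 mice were analysed, 6 each of mWT, mKO, fWT and fKO, grouped by sex and genotype as labelled. The authors prepared stranded mRNA libraries, trimmed the 100 bp reads (fastp 0.20), mapped them with STAR 2.7a against GRCm38.p6 and deposited raw featureCounts counts per Ensembl gene, without normalization (tool versions from the submitters' processing notes). The annotation release, the strand setting and the treatment of multi-mapping reads are not given in the sources used here. Symbols and positions came from GENCODE M21, in which 25712 of the 25746 genes had an entry.

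Genes that reached 0.66 CPM in 6 or more libraries were tested in R 4.3.3 with edgeR 4.0.16 (TMM scaling, robust quasi-likelihood fit, a mean for each group, all 24 libraries). Contrasts were the sex difference within each genotype, the KO effect within each sex and averaged, and their interaction. The 95% intervals used the t distribution with the degrees of freedom of the fit. CPM were scaled by TMM factors, and levels between genes were divided by kb of exon. On simulated counts with 200 changed genes, the procedure was checked before use. Replicates of a group differed by more than sampling noise (lowest chi-square per gene 7.67).

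The 10 members and all gene lists were chosen with earlier results of these data known. All members are named for the sex differences and for the KO effect within each sex. For the interaction and the averaged KO effect, members are named at an unadjusted p under 0.05 by edgeR or where their sign changed with the processing. Of each other list at most 3 called genes are named per comparison. Up to 3 genes most alike to a member are named for some members. A replicate number is shared by mice of different groups that are not the same animal, and 5 of 24 same-numbered pairs correlated above 0.1 (median −0.0286), so the numbers do not pair mice. Alternatives were DESeq2 1.42.0, its size factors, no filter, 3 other filters, non-robust dispersions, removal of the Mup genes, only the 2 groups compared, the replicate number as a block, and each mouse left out. The deviances of edgeR 4 were added after seeing the data. Promoter windows are RefSeq sequences, with entries for 8 of 10 members. Methylation data were not analysed here.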

Additional observations from a re-analysis of the deposited data

Results flagged for a closer look

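Each group of 6 mice was searched for a highest or lowest mouse that stood apart from the others by Dixon's criterion, for the 10 members in 4 groups (40 tests). The criterion was met in 2 groups, where chance alone gives about 1 in 20. Slco1a1 was 936 CPM in mKO mouse 1, above the other mKO mice at up to 723 CPM, and the same mouse had the lowest Slco1a4 level of its group, 65.1 CPM. Without this mouse the log2 fold change of Slco1a1 between the sexes in KO mice was 1.24 (adjusted p = 0.00673, edgeR), against 1.33 (0.00249) with it. Abcc3 was 267.8 CPM in fKO mouse 1, below the other fKO mice at 322 CPM or more. Without that mouse the KO effect on Abcc3 in females was 0.10 on the log2 scale, against 0.05 with it, and it was not called by edgeR in either case.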

How the results depend on the processing

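Over 35 alternatives per comparison (34 for the interaction and the averaged KO effect, which need all 4 groups), 24 of which left out 1 mouse, the count of members called was 7 to 8 for the sex difference in WT mice and 5 to 6 in KO mice, and 0 for each KO effect and the interaction. Lost calls among the members were those of Abcc3 in WT mice (adjusted p = 0.0503 without a filter, 0.0546 with only the 2 groups compared) and of Slco2b1 in KO mice (0.0647 and 0.0574), beside the mice named above, by edgeR. With the replicate number as a block, 7 and 5 members were called (Abcc3 in WT mice at 0.0540, Slco2b1 in KO mice at 0.0729), and 1747 and 1374 genes in all against 2135 and 1774. The block is no pairing by the design, since the numbers are shared by different animals. Among other genes named, the call of Nr1i3 in WT mice was lost with only the 2 groups compared (0.0540), that of Arnt in KO mice in 8 alternatives (the block at 0.0733 among them) and that of Slco2a1 in 18 (the block at 0.0762 and no filter at 0.0595 among them).

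Values that changed sign were all uncalled and near 0. Slco2b1 in males had a KO effect of −0.000948 with the filter read word for word, and Abcc2 averaged over the sexes had 0.00151 with DESeq2 size factors, 0.000343 with filterByExpr and 0.00152 with DESeq2. The other changes of sign came with 1 mouse left out, and the ranges that follow are over all alternatives. Between the sexes, log2 fold changes were −0.0193 to 0.0918 for Slco1b2 in WT, −0.0183 to 0.105 for Abcc6 in KO and −0.0101 to 0.0790 for Abcc2 in KO mice. KO effects in males were −0.00501 to 0.257 for Slco1a4, −0.0745 to 0.0653 for Slco1a1, −0.0101 to 0.113 for Abcc6 and −0.0410 to 0.0299 for Slco2b1. In females KO effects were −0.0349 to 0.333 for Abcb1a, −0.145 to 0.0820 for Slco1a4 and −0.00104 to 0.103 for Abcc3. The interaction of Abcc4 ran from −0.0685 to 0.177, and the averaged KO effect from −0.0134 to 0.121 for Slco1a4 and −0.0260 to 0.0202 for Abcc2. The cause was not tested.

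Over all genes, counts called for a KO effect depended more on the setting: 26 in males against 139 with DESeq2, 48 with only the 2 groups compared, 60 without mWT mouse 1, 43 without mWT mouse 2 (19 to 60 over the mice left out), 2 without the Mup genes and 1 with the filter read word for word, and 11 in females against 18 with DESeq2, 12 with only the 2 groups compared, and 0 without the Mup genes or with that filter (8 to 12 over the mice left out). For the interaction DESeq2 called 11 genes against 1, and for the averaged effect 50 against 21. Depth limits Abcb1a and Abcc4 most, with as few as 17 and 19 counts in a library. Interval bounds cover the spread between these mice only.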

Other observations

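Receptors and their target genes were read beside the transporters. Of 14 xenobiotic and bile acid receptors and factors, 1 was called between the sexes in WT mice and 2 in KO mice, against 17.3% and 14.4% of all genes. Nr1i3 (CAR), which induces Cyp2b genes and several transporters, was 121 to 372 CPM (median 252) in mWT and 267 to 588 CPM (median 447) in fWT mice, with a log2 fold change of −0.84 (SE 0.232, adjusted p = 0.0144, edgeR), and −0.93 (SE 0.233, adjusted p = 0.00824) in KO mice. Arnt, the partner of AhR, was called lower in males in KO mice (−0.33, SE 0.104, adjusted p = 0.0309, edgeR), which was lost without mKO mouse 2 (0.0508), 5 (0.0805) or 6 (0.0621) or fKO mouse 1 (0.0554), 4 (0.0998) or 6 (0.0724). It was not called in WT mice, and the interaction of KO and sex was −0.37 for Arnt (SE 0.147, unadjusted p = 0.0179, adjusted p = 0.822, edgeR). Nr1i2 (PXR) had means of 83.8 to 85.9 CPM in the 4 groups and was not called.

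Of 16 target genes of CAR, PXR, AhR and NRF2, 2 were higher and 4 lower in males in WT mice, and 5 higher and 4 lower in KO mice, against the 17.3% and 14.4% of all genes called. Cyp2b10, the classical target of CAR, was 0.706 to 5.61 CPM in mWT and 23.8 to 53.9 CPM in fWT mice (log2 fold change −3.73, SE 0.410, adjusted p = 1.09e-06, edgeR). Cyp2b9 was at most 0.187 CPM in mWT and 452 to 729 CPM in fWT mice. Gsta1, a glutathione transferase, was higher in males (log2 fold change 2.33, SE 0.450, adjusted p = 0.000583, edgeR). None of the 16 was called for a KO effect in males by edgeR, and 4 of 16 had an unadjusted p under 0.05 against 10.6% of all genes. Above 0 lay 14 of 16 values, against 49.4% of all genes, with a median of 0.32 against 0.00 over all genes. The list was chosen with earlier results of these data known, its genes share regulators, and it was not tested as a set. DESeq2 called 2 of the 16 higher in mKO mice and gave 2 no adjusted p. They were Srxn1, an NRF2 target that reduces oxidized peroxiredoxins (log2 fold change 0.33, adjusted p = 0.0130, against 0.0936 by edgeR), and Cyp2b9 (adjusted p = 0.0479 against 0.373), which summed to 7 counts over the mWT and 34 over the mKO mice. These were named after their values were seen. Srxn1 was 30.8 to 39.1 CPM in mWT and 41.7 to 48.5 CPM in mKO mice, without overlap. In females the median was 0.04, with 11 of 16 above 0, against 49.1% of all genes. There 0 of 16 was called by edgeR or DESeq2, with 2 at an unadjusted p under 0.05, against 4.87% of all genes. Of 20 growth hormone regulated sex-dependent genes, 6 were higher and 10 lower in males in WT mice, and 6 higher and 9 lower in KO mice, against 8.51% of all genes higher and 8.81% lower in WT, and 7.26% and 7.13% in KO mice. As this list was made of genes known to differ between the sexes, these counts follow from its choice. For the KO effect in males, edgeR called 0 of the 20 (3 at an unadjusted p under 0.05, against 10.6% of all genes) and DESeq2 called Elovl3, a fatty acid elongase, higher and Trim24 lower (adjusted p = 0.0365 and 0.0164), both also named after their values were seen.

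The genes that varied most like a member across the 24 mice, as deviations from group means, are descriptions over libraries that differ in depth and base composition. For Slco1a1 they were Slc22a28 (r = 0.865), the complement gene C6 (0.840) and 4930402H24Rik (0.821). For Abcg2 they were Abhd6 (0.887), Ssh2 (0.874) and Ddo (0.761), and for Slco1a4 Clk1 (0.763), Tmem87b (0.734) and Gdap2 (0.725). The highest values were those of Slco1b2 with Azi2 (0.915) and Nectin3 (0.912) and of Abcc6 with Ciz1 (0.906), the 2 members with the largest absolute r with the GC slope of the libraries (−0.800 for Slco1b2 and 0.867 for Abcc6).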
